A study of Mus musculus with 26 samples.

Results

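Neurofilament and synuclein transcripts were examined in 26 single mouse retinal amacrine cells, each measured on its own Affymetrix 430 2.0 array. The 7 genes were the light, medium and heavy neurofilament subunits (Nefl, Nefm and Nefh), internexin (Ina), peripherin (Prph), beta-synuclein (Sncb) and gamma-synuclein (Sncg), out of 18193 genes with a probe set of their own. They were chosen by name, and 13 probe sets of the array are annotated to them. Where a gene had several sets, the one whose log2 signals averaged highest over the cells was read, with signals under 200 raised to 200. Detection in a cell meant a signal of 1000 or more, on arrays that share a trimmed mean of about 500.

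Neurofilaments are intermediate filaments that fill axons and set their calibre. Nefl forms the core of the filament, Nefm and Nefh add long tails that project from it, and internexin and peripherin can join the same filaments in central and peripheral neurons. Beta- and gamma-synuclein are small soluble proteins of nerve terminals and axons, relatives of the alpha-synuclein of Lewy bodies. In the retina, neurofilaments and Sncg are widely used to mark ganglion cells, the neurons with long axons, whereas most amacrine cells are interneurons without a classical axon.

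The study asked which genes mark the classes of amacrine cells. A GFP reporter driven by an Ndrg4 (pNdrg4) or a synapsin (pSynapsin) promoter was electroporated into newborn retinas, in vivo or ex vivo, and fluorescent cells were picked singly after dissociation with papain. Their cDNA went through 35 cycles of PCR before hybridisation. The labels give 7 groups. They are 10 P5 (postnatal day 5) pNdrg4 cells with no culture stated, 5 P5 pNdrg4 cells cultured for 5 days, 4 P5 pSynapsin cells cultured for 5 days, 2 P8 pNdrg4 and 2 P8 pSynapsin cells cultured for 8 days, 2 P4 pNdrg4 cells cultured for 4 days and 1 E19 (embryonic day 19) pSynapsin cell cultured for 4 days. The E19 label is embryonic, so the description of newborn retinas does not cover that cell. All cells carried 1 of these reporters, so cells in which neither promoter was active were not sampled, and the mouse strain is not stated in the sources used here. Because the labels tie no cell to an animal, retina or culture, each group counted as 1 sample: no difference between groups was tested, and SDs describe only the spread over cells.

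Cells are named by their group and the code in their label. Pax6, a transcription factor of amacrine cells, was detected in 26 of 26 cells, and the vesicular transporter of GABA and glycine, Slc32a1, in 22. The GABA-making enzyme Gad1 was detected in 11 cells and the glycine transporter Slc6a9 in 14. The number of genes detected per cell ran from 1909 to 4180 (median 3253.5). It was 1909 to 3513 in the cells with no culture stated (median 2361.5) and 3049 to 3925 in the cultured P5 pNdrg4 cells (median 3256). Markers of ganglion cells other than the members were nearly absent. Of 8 measured, Rbpms, Pou4f3, Slc17a6, Thy1, Nrn1 and Atoh7 were detected in 0 of 26 cells, and Pou4f1 and Isl1 in 1 cell each. Pou4f2, also on this list, was not analysed. Of 5 horizontal cell markers, Lhx1, Onecut1 and Calb1 were detected in 0 cells, Onecut2 in 4 and Septin4 in 8. Markers of other cell types were detected more often. Of 9 Muller glia markers, Glul was detected in 18 cells, Dkk3 in 16, Car2 in 14 and Vim in 11, but Apoe and Aqp4 in 0. Of 8 rod markers, Rom1 was detected in 13 cells, Sag in 12, Pdc in 11 and Nrl in 10, but Gnat1 in 2 and Cnga1 in 1. Of 4 bipolar cell markers, Prkca was detected in 6 cells, Pcp2 in 4, Otx2 in 3 and Trpm1 in 0.

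The RefSeq table of promoters (build GRCm38.p6) held 4 of the 7 genes. The 250 bases before 1 listed transcription start of each are shown. They set the widely detected Ina and Sncb beside the rarely detected Prph and Sncg. The Prph window lies inside the annotated gene (chr15:99053579-99058978). The Sncb window overlaps its gene, which reaches to chr13:54766622. Capitals mark a GC box (GGGCGG on either strand) or a TATA box (TATAAA on either strand). Each sequence is read along the strand of its gene.
Ina promoter, chr19:47014431-47014680, plus strand: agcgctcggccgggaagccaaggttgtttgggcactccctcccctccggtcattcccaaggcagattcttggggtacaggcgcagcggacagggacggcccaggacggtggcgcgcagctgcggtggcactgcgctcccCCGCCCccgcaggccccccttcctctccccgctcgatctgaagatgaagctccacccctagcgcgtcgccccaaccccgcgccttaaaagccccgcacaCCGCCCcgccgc
Prph promoter, chr15:99054924-99055173, plus strand: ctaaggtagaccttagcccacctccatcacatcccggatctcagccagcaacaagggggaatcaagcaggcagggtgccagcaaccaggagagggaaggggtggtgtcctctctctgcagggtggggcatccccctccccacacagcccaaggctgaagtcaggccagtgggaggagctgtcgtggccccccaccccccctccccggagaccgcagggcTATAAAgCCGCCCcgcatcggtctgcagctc
Sncb promoter, chr13:54766596-54766845, minus strand: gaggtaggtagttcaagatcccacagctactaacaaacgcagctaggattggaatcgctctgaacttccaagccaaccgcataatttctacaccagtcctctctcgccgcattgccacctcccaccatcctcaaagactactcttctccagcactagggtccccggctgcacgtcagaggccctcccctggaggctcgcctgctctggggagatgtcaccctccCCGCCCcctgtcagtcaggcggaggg
Sncg promoter, chr14:34374670-34374919, minus strand: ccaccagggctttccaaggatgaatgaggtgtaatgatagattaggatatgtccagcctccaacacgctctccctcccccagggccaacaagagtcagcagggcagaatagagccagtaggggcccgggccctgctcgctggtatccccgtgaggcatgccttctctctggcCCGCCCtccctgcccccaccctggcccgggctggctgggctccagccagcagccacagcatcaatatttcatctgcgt
The Ina window stood out for its CpG content: it held 25 CpG dinucleotides, a number reached by 10.7% of 32851 windows of this length, at 70.8% G plus C, with 2 GC boxes. The median window held 6 CpG at 52.4% G plus C. The Sncb window held 10 CpG and 1 GC box at 58.8% G plus C. The Prph and Sncg windows held 7 CpG and 1 GC box each, at 65.2% and 61.6%. A GC box occurred in 32.7% of all windows and all 4 members shown had one, whether detected in many cells or in none. A TATA box, present in 12.4% of windows, was found only in the Prph window among these 4. Such matches describe the letters and not the binding of a factor. Nefl, Nefm and Nefh were not matched.

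The members fell into a widely detected pair and a rarely detected remainder. Ina was detected in 25 of 26 cells (96.2%, exact Clopper-Pearson 95% interval 80.4 to 99.9%) and Sncb in 21 (80.8%, 60.6 to 93.4%). Of all 18193 genes, 1.15% were detected in at least as many cells as Ina and 3.51% in at least as many as Sncb. Nefl was detected in 5 cells (19.2%, 6.55 to 39.4%), Nefm in 4 (15.4%, 4.36 to 34.9%) and Sncg in 2 (7.69%, 0.946 to 25.1%). Nefh and Prph were each detected in 0 of 26 cells. That allows a share of up to 11.5% of cells by 3 over the number of cells, or 13.2% by the exact interval. These intervals and limits cover counting error only. They treat cells of differing age, reporter and culture as independent draws from 1 population, which the labels do not show. A signal under 1000 after so much amplification does not show that a transcript was absent. Every cell had at least 1 member: 4 cells had 1, 15 had 2, 5 had 3 and 2 had 4. The commonest combination was Ina with Sncb and no other member, in 13 cells.

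**Figure D1:**
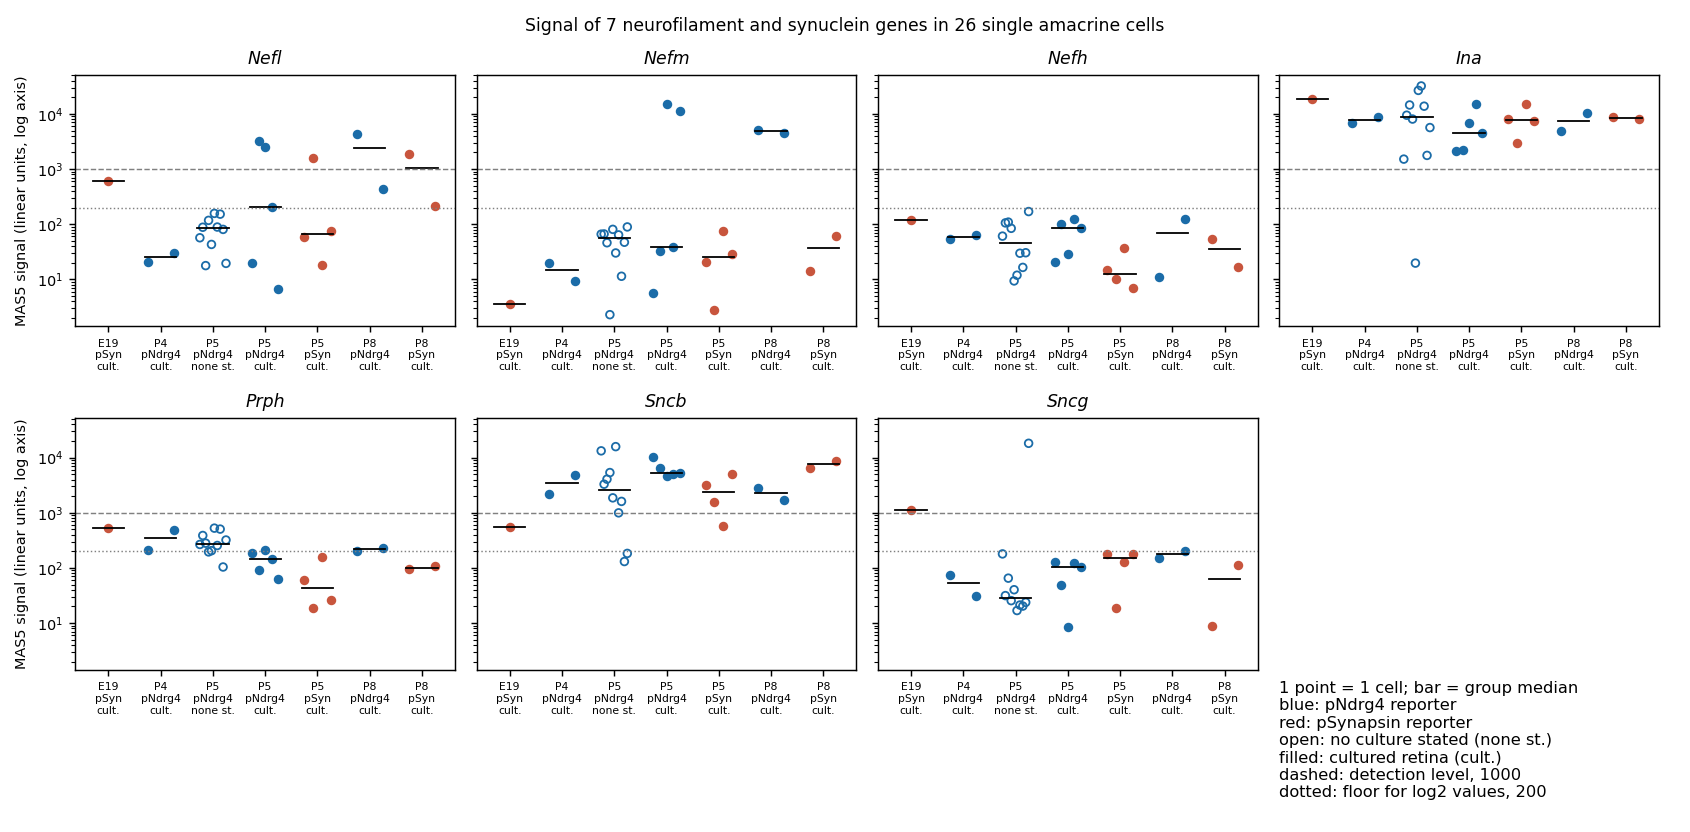
Signal of each member in each of the 26 cells on a log axis, with cells grouped by age, reporter and culture, bars at group medians, a dashed line at the detection signal of 1000 and a dotted line at the floor of 200. Ina and Sncb lie mostly above the dashed line in every group of 2 or more cells, whereas Nefl and Nefm pass it in 5 and 4 cells, Sncg in 2, and Nefh and Prph in 0.

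Nefl, the core subunit, was detected in cultured cells. In the cultured P5 pNdrg4 cells its signal was 3229 in D5, 2549 in D3, 207 in D6, 20.1 in C6 and 6.74 in C1. In the P5 pSynapsin cells it was 1595 in E2 and 74.9, 57.5 and 17.95 in E4, E1 and E3. Thus a minority of cells carried the transcript and the rest lay far below. At P8 the pNdrg4 cells gave 4299 (A1) and 427 (A2), and the pSynapsin cells 1867 (B4) and 218 (B3). The E19 cell gave 615, and the P4 cells gave 29.9 (B4) and 20.9 (A3). The 10 cells with no culture stated ran from 17.8 to 157 (median 84.5), all below every cell in which Nefl was detected. In all, 5 of 16 cultured cells and 0 of 10 others had Nefl.

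Nefm, the medium subunit, showed a wide gap between cells that had it and cells that did not. Its signal was 15249 in D3 and 11298 in C1 of the cultured P5 pNdrg4 cells, but 38.2, 33.0 and 5.58 in D6, D5 and C6. It was 5074 and 4593 in A1 and A2, the P8 pNdrg4 cells. In every other cell it was 89.4 or lower, so no cell fell between 89.4 and 4593. The P5 pSynapsin cells gave 74.0, 29.4, 20.9 and 2.84 (E3, E4, E1 and E2), and the P8 pSynapsin cells 60.3 (B3) and 14.2 (B4). The E19 cell gave 3.62 and the P4 cells 20.2 (A3) and 9.49 (B4). The 10 cells with no culture stated ran from 2.29 to 89.4 (median 55.6). Nefm was therefore detected in 4 of 7 pNdrg4 cells cultured to P5 or P8, in 0 of 6 pSynapsin cells of those ages and in 0 of 10 cells with no culture stated.

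Nefh, the heavy subunit and the last of the 3 to appear in maturing axons, stayed between 7.06 and 170 (median 45.6) in all cells. Even in the 4 Nefm cells it was low, at 85.4 in C1, 29.4 in D3, 11.2 in P8 A1 and 125 in P8 A2. No cell was above the floor of 200 used for differences, so Nefh has no measured order between cells or groups.

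Nefl and Nefm, which lie on the same chromosome and whose products assemble together, were only partly found in the same cells. Both were detected in D3 and in A1 of the P8 pNdrg4 cells. Nefl alone of this pair was detected in D5, E2 and B4 of the P8 pSynapsin cells, and Nefm alone in C1 and in A2 of the P8 pNdrg4 cells. The remaining 19 cells had neither. Pearson's r of the log2 signals over the 26 cells was 0.43, as a description of cells that share their PCR and array steps.

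The 7 cells with Nefl or Nefm were all of the Slc6a9 kind. Slc6a9 was detected in 7 of 7, with signals of 10323 to 23213, and Gad1 in 0 of 7, with signals of 2.60 to 88.9. Among all cells, 7 of 14 with Slc6a9 and 0 of 11 with Gad1 had a light or medium subunit. Gad2, the second GABA-making enzyme, was detected beside Nefl in 3 of 5 cells and beside Nefm in 3 of 4. The transcription factor Tfap2b was detected in all 7 cells. Over all 26 cells Tfap2b was detected in 20 and Gad2 in 14. The cultured Slc6a9 cells without Nefl or Nefm were E1, E3, E4 and B3 of the P8 pSynapsin cells. Their Tfap2b signals were 5.13, 26.4, 13.2 and 40.3. Of the Slc6a9 cells with no culture stated, A6 and B1 had Tfap2b (17807 and 5239) and B4 did not (14.8). Culture and class moved together: 0 of 3 Slc6a9 cells with no culture stated had Nefl or Nefm, against 7 of 11 cultured ones, and 7 of 10 cells with no culture stated had Gad1. These 7 cells also had 3251 to 4180 detected genes (median 3462), against 1909 to 3998 (median 2583) in the other 19. The part of class, culture and number of detected genes in the count was not tested. The summed signal of the 8 ganglion cell markers was 163 to 2174 in these 7 cells and 166 to 3167 in the others. None was detected in the 4 Nefm cells. The 1 ganglion cell marker detected among the 7 was Isl1, at 1958 in B4 of the P8 pSynapsin cells. Isl1 is also made by cholinergic amacrine cells. Of 8 measured rod genes, 1 was detected in each of D5, D3 and C1 and 6 in E2. P8 A1 had 5, and P8 A2 and B4 of the P8 pSynapsin cells had 7 each. Cells without Nefl or Nefm had up to 5, as in B3 and B4 of the cells with no culture stated. The part of rod genes was not tested.

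**Figure D2:**
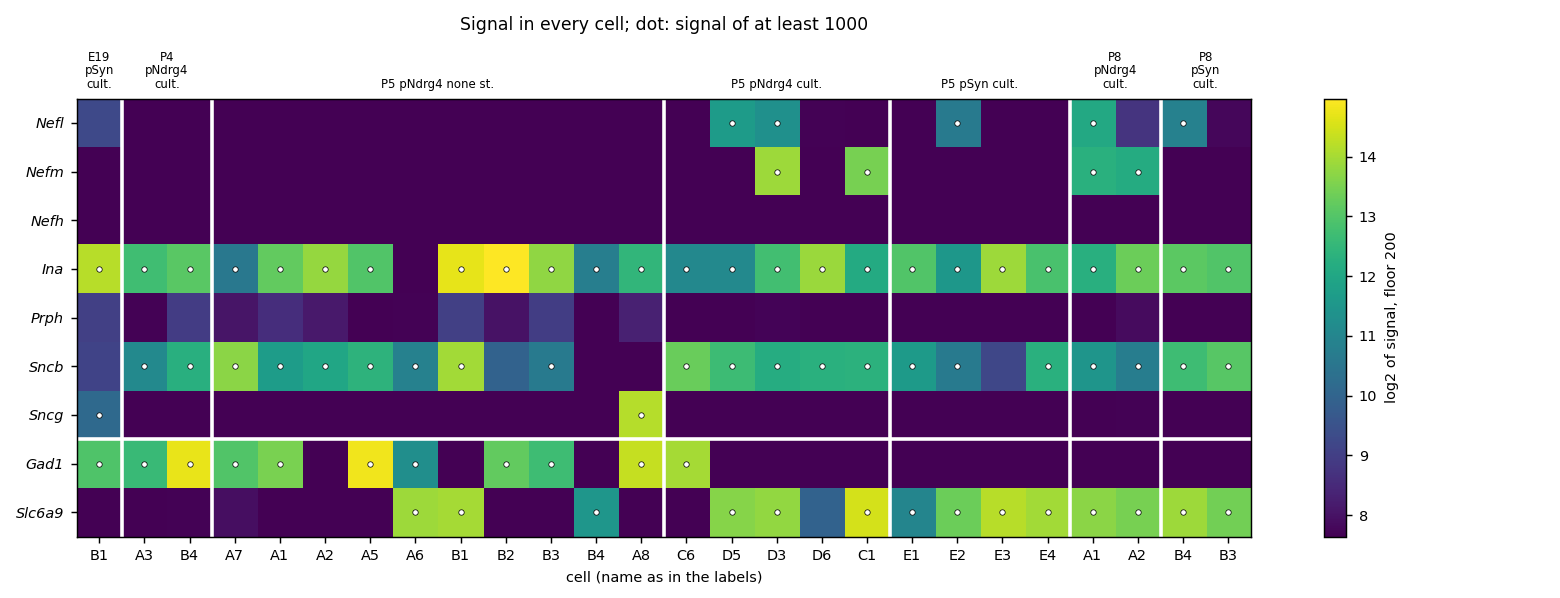
Log2 signal, with the floor of 200, of the 7 members and of the class markers Gad1 and Slc6a9 (lines of the grid) in each of the 26 cells (columns, by group), with a dot at a signal of 1000 or more. The dots of Nefl and Nefm fall only in cells that also have a dot for Slc6a9 and none for Gad1.

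The second Nefl probe set gave a partly different set of cells. It reached 1000 in 3 cells, D5 (5842), E2 (1553) and B4 of the P4 pNdrg4 cells (1881). Of these, D5 and E2 were detected by both sets. D3 gave 2549 on the first and 18.4 on the second, and P8 A1 gave 4299 and 126. With either set counted, Nefl was detected in 6 cells, and 1 of them, P4 B4, had Gad1. At a detection signal of 500 on the set used, the E19 cell (Nefl 615, Gad1 7943) would also count. That Gad1 cells lacked Nefl thus holds for the set used at 1000, and not for either set or at 500.

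**Figure D3:**
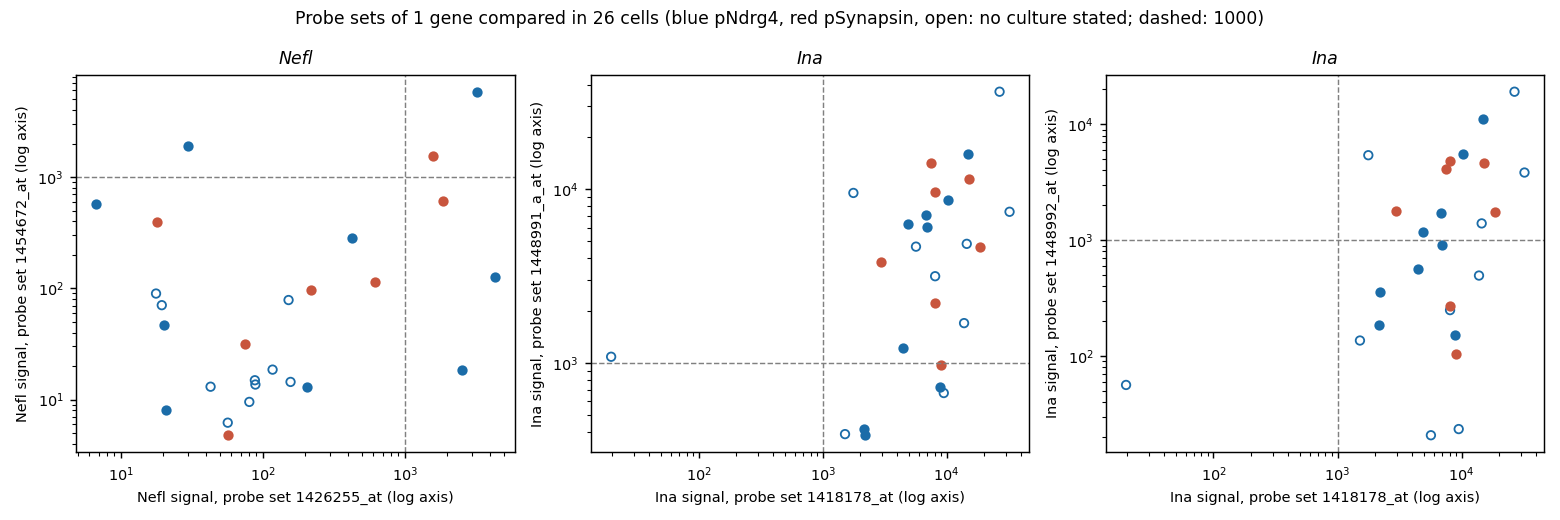
Signals of the other probe sets of Nefl and Ina against the set used, over the 26 cells on log axes, 1 point per cell, coloured by reporter, with dashed lines at 1000. The Nefl sets are both above 1000 in 2 cells, and 1 cell lies left of the line for Ina.

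Ina, which encodes an internexin of central neurons that appears early in development, was present at high signal in all groups. The E19 cell gave 18558. The cultured P5 pNdrg4 cells gave 14989 (D6), 6901 (D3), 4465 (C1), 2197 (D5) and 2151 (C6), and the P5 pSynapsin cells 15254 (E3), 8026 (E1), 7432 (E4) and 2949 (E2). On the probe set used, all cultured cells lay above 2000, whatever the reporter. The P8 pNdrg4 cells gave 10272 (A2) and 4902 (A1), the P8 pSynapsin cells 8978 (B4) and 8044 (B3), and the P4 cells 8838 (B4) and 6822 (A3). The 10 cells with no culture stated had the widest spread, from 19.7 to 32149 (median 8780). Their highest cells, B2 and B1 (26712), exceeded all cultured cells, and their lowest was A6. In order of median signal the groups ran from the E19 cell through no culture stated, P8 pSynapsin, P4 and P5 pSynapsin to P8 pNdrg4 and cultured P5 pNdrg4 (4465), and neighbours of 2 or more cells in this order overlapped throughout.

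The single cell without Ina depended on the probe set. A6 gave 19.7 on the set used, 1083 on a second and 56.3 on the third. The second set reached 1000 in 20 cells and the third in 13, all 3 did so in 13 cells, and at least 1 set did so in 26 of 26 cells. Cultured cells were among those under 1000 on the second set. These were D5 (382) and C6 (415) at P5, B4 of the P4 pNdrg4 cells (722) and B4 of the P8 pSynapsin cells (976).

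Prph, a filament protein of peripheral neurons and of some ganglion cells, was not detected. The signals of the probe set used ran from 19.1 to 527 (median 202), highest in B1 of the cells with no culture stated and next highest, at 522, in the E19 cell. The cells with no culture stated ran from 104 to 527 (median 274), and the cultured P5 pNdrg4 cells from 64.3 to 210. All 4 Prph probe sets were below 1000 in all 26 cells. The set used is of a design that may also bind related transcripts, so its low values cannot be read as Prph alone.

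Sncb, which encodes a presynaptic protein, was detected in every cultured pNdrg4 cell. At P5 those cells gave 10169 (C6), 6530 (D5), 5209 (C1), 4994 (D6) and 4605 (D3), the narrowest spread of any group of more than 2 cells (SD 0.46 log2). The P8 pNdrg4 cells gave 2818 (A1) and 1725 (A2), and the P4 pNdrg4 cells 4888 (B4) and 2191 (A3). The P5 pSynapsin cells were more mixed, at 5068 (E4), 3213 (E1), 1580 (E2) and 586 (E3). The P8 pSynapsin cells were high, at 8644 (B3) and 6590 (B4). The E19 cell gave 555. The cells with no culture stated ran from 131 to 15830 (median 2581), and both the highest and the lowest Sncb signals of all 26 cells were among them. Their 3 cells below 1000 were B2 (997), A8 (183) and B4 (131).

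Sncg, used as a ganglion cell marker, was confined at this signal to a pair of cells. A8 of the cells with no culture stated gave 18196 and the E19 cell 1137, and the other 24 cells gave 8.58 to 206. Both cells had Gad1 and neither had Slc6a9. A8 had 1966 detected genes and the E19 cell 2306, both low in the range of all cells. The 6 ganglion cell markers listed above as detected in 0 cells were below 1000 in A8 too, and Pou4f1 and Isl1 were detected in other cells.

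The synucleins were not detected together at a signal of 1000. Sncg was detected in 2 of the 5 cells without Sncb and in 0 of the 21 cells with it. In A8 Sncg was at 18196 and Sncb at 183, and in the E19 cell at 1137 and 555. At a detection signal of 500 the E19 cell would have both, and only A8 would have Sncg without Sncb. The other cells without Sncb at 1000, B2 (Sncb 997), B4 (131) and E3 (586), had Sncg at 21.3, 23.8 and 127. With 2 Sncg cells this is a description only. Ina and Sncb, by contrast, were detected together in 20 cells, Ina alone in 5 and Sncb alone in 1 (A6), with r of -0.01 between their log2 signals, so their levels did not follow each other from cell to cell.

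Differences between groups were taken as differences of mean log2 signals with the floor of 200 (7.64 on the log2 scale). They understate a gap where a group lies at the floor. Only genes detected in at least 2 cells (8570) gave the background, and 5 members passed that filter. Nefh and Prph did not. Nefl passed it through cultured cells alone and Nefm through cultured pNdrg4 cells alone. A gene at the floor throughout a group can only come out level or higher in the group compared with it. A difference of 1 on this scale is 2-fold. All comparisons with cultured P5 pNdrg4 cells share those 5 cells, so these comparisons are not independent.

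Cultured P5 pNdrg4 cells had higher mean log2 Nefl, Nefm and Sncb signals than P5 pNdrg4 cells with no culture stated. For these genes and for Ina the difference was smaller than the SD of the more variable group. Mean log2 Sncb was 12.56 ± 0.46 (SD, n = 5) against 11.05 ± 2.19 (SD, n = 10), a difference of 1.51. The Sncb cells overlapped, as those with no culture stated reached 15830 and the cultured ones 10169. Leaving out A8 or B4 of the cells with no culture stated gave a difference of 1.13. Nefl stood at 9.19 ± 2.10 and Nefm at 10.06 ± 3.31 against the floor in all 10 other cells, differences of 1.55 and 2.41. For Nefl and Nefm the cells overlapped at the floor, and each mean rested on 2 of 5 cells. Without D5 the Nefl difference was 0.93 and without D3 1.02, and without D3 the Nefm difference was 1.46 and without C1 1.56. Taking group medians, Nefl differed by 0.05 and Nefm by 0.00. Ina differed by -0.31 and Sncg by -0.65, the latter carried by A8. Thus 3 of 5 members that passed the filter were at least 2-fold higher and 0 lower. Of these, Nefl and Nefm passed it through cultured cells alone and could not come out lower, so the count is a description only. Among all genes 26.5% were higher, 9.05% lower, and 0.338% did not overlap. The median difference over all genes was 0.31, and 7 of 10 cells with no culture stated had Gad1 against 1 of 5 cultured ones. Rod genes were lower in the cultured cells, 5 of 7 by at least 2-fold (median -1.08, Pdc -2.76), as were 3 of 6 Muller glia genes (Car2 -1.80, Vim -3.001). The part of this class make-up, of these other markers and of the number of detected genes was not tested.

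At P5, pSynapsin cells had less Nefm and Sncb signal than cultured pNdrg4 cells. Mean log2 Sncb was 10.94 ± 1.36 (SD, n = 4) against 12.56 ± 0.46, a difference of -1.61, and E4 lay within the pNdrg4 range. Without E3 it was -1.03. Nefm differed by -2.41, from 0 of 4 against 2 of 5 cells, by -1.46 without D3 and -1.56 without C1, and by 0.00 between group medians. Nefl differed by -0.80 and Ina by 0.63. With 1 cell left out Nefl ran from -1.55 (without E2) to -0.18 (without D5; -0.27 without D3), and Ina from 0.27 (without E3) to 1.06 (without E2). Each passed 2-fold only without certain cells, Nefl without E2, C6, C1 or D6 and Ina without E2 or D6. In the background 18% of genes were at least 2-fold lower, 20.7% higher and 1.55% without overlap, against 2, 0 and 0 of the 5 members. Rod genes moved with the reporter. Of 8 measured, 1 to 6 were detected per pSynapsin cell (median 3) and 0 to 1 per pNdrg4 cell (median 1). Their median summed signals were 16683 and 2568. Amacrine class markers moved too, 4 of 7 being at least 2-fold lower in pSynapsin cells and 1 higher. Tfap2b differed by -3.55, Tfap2a by -3.10, Gad2 by -2.45, Gad1 by -1.27 and Slc6a9 by 1.20. The part of rod genes and of class make-up was not tested.

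At P8 the reporters differed most in Nefm. Both pNdrg4 cells were at 4593 or more and both pSynapsin cells at the floor, a difference of -4.59 on the log2 scale. Sncb went the other way from P5, at 12.88 ± 0.28 (SD, n = 2) in pSynapsin against 11.11 ± 0.50 (SD, n = 2) in pNdrg4 cells, a difference of 1.78. Nefl differed by -1.09, but by 0.46 without B3 and 0.58 without A1, so its direction rested on single cells. Without B4 it was -2.63 and without A2 -2.75. Ina differed by 0.26. Of the 5 members 1 was at least 2-fold higher and 2 lower, and Nefm and Sncb did not overlap. Among other markers, 4 of 6 Muller glia genes were at least 2-fold lower in the pSynapsin cells (Dkk3 -3.29, Car2 -1.89), and of 7 rod genes 3 were lower and 1 higher. Of 7 amacrine genes 2 were lower (Tfap2b -2.07, Gad2 -1.49) and 1 higher (Slc32a1 1.94). The part of all these markers was not tested. With 2 cells a side such gaps are common: 25.1% of genes were higher, 24.7% lower and 21.3% did not overlap.

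From P5 to P8, Sncb went in opposite directions under the reporters. Time in culture rose with age, from 5 days at P5 to 8 days at P8, so age and culture time cannot be told apart here. In cultured pNdrg4 cells it was lower at P8 by 1.45 on the log2 scale (the difference P8 minus P5 was -1.45), and in pSynapsin cells higher by 1.94. In both cases the P8 and P5 cells did not overlap. The difference between these age differences was not tested. Nefm was higher at P8 in pNdrg4 cells by 2.18, with P8 cells lying between the high and the low P5 cells, and at the floor at both ages in pSynapsin cells. Nefl was higher by 1.21 in pNdrg4 cells, a value that became -0.45 without A1, 2.88 without A2, 1.83 without D5, 0.84 without D6 and 0.83 without C6 or C1. It was higher by 0.93 in pSynapsin cells, which became -0.62 without B4, 2.47 without B3 and 1.67 without E2. With the other Nefl probe set the age differences were -1.03 and -0.18, so the direction of Nefl with age was not settled. Ina differed by 0.61 and 0.24, and in pNdrg4 cells the value ran from 0.07 (without A2) to 1.14 (without A1), past 2-fold only without A1 or D6 (1.03). In pNdrg4 cells 2 of 5 members were higher and 1 lower, beside 26.3% and 19.6% of genes, with 6.52% not overlapping. In pSynapsin cells 1 was higher and 0 lower, beside 24.9% and 20.3%, with 7.77% not overlapping. Rod genes also moved with age: 5 and 7 of 8 were detected in the P8 pNdrg4 cells and 2 and 7 in the P8 pSynapsin cells. Of 6 Muller glia genes 4 were at least 2-fold higher at P8 and 1 lower in pNdrg4 cells, and 2 higher and 1 lower in pSynapsin cells. Of 7 amacrine genes 1 was higher and 3 lower in pNdrg4 cells, and 1 higher and 0 lower in pSynapsin cells. The part of these markers was not tested.

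**Figure D4:**
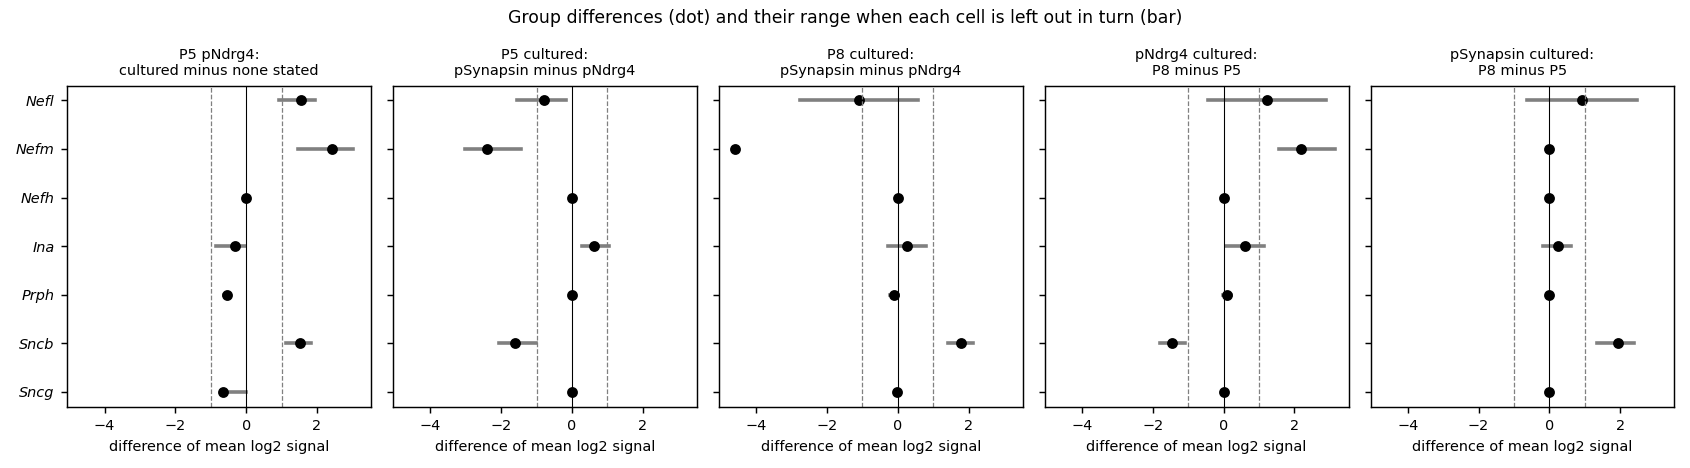
Differences of mean log2 signal for each member in the 5 comparisons (culture, reporter at P5 and at P8, age within each reporter). The age comparisons also differ in time in culture. Bars give the range when each cell is left out in turn, and dashed lines mark 2-fold. Nefm reaches -4.59 for the reporter at P8, Sncb changes side between the ages and reporters, and the ranges of Nefl cross 0 in the P8 reporter and both age comparisons.

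Other genes of the filament and synuclein systems were read from fixed lists, each described by its count. For the P5 reporter comparison those counts stand beside 20.7% of all genes at least 2-fold higher and 18% lower, with a median of 0.00. Of 12 other intermediate filament genes, Vim, the filament of glia and progenitors, was detected in 11 cells, the nuclear lamin Lmnb2 in 6, and Gfap, Nes, Lmna and Lmnb1 in 1 cell each. Des, Synm, Krt8, Krt18, Bfsp1 and Bfsp2 were detected in 0 cells. Between the cultured P5 pNdrg4 cells and those with no culture stated, Vim differed by -3.001 on the log2 scale and Lmnb2 by -1.49. None of the 12 was detected in the 5 cultured P5 pNdrg4 cells. At P5 Vim was higher in pSynapsin cells by 2.19 and Lmnb2 by 0.72.

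The 13 measured genes for neurofilament transport, linkage, phosphorylation and turnover were each detected in at least 3 cells. The kinesin heavy chain Kif5c was found in 25 cells, Cdk5r1, the activator of the neurofilament kinase Cdk5, in 24, and Dync1h1 and Macf1 in 22 each. The kinesin Kif5a, a motor that carries neurofilaments, was found in 17. In the culture comparison 4 of 13 were at least 2-fold higher and 4 lower, beside 26.5% and 9.05% of all genes, with a median of 0.65 beside 0.31. The share of higher genes was thus near that of all genes. Kif5a (2.51) and Cdk5 (1.61) were higher and the kinase Gsk3b (-2.32) lower. In the P5 reporter comparison 2 were higher and 2 lower, with a median of -0.04 beside 0.00. Kif5a (-2.88) and Cdk5 (-1.39) were lower in pSynapsin cells and Stub1, a ubiquitin ligase, higher (1.70).

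Of 17 genes of the neuronal microtubule skeleton and axon growth, Tuba1a, Tubb2a, Tubb2b and Crmp1 were detected in 26 cells and Map1b in 0. In the culture comparison 0 of 16 were at least 2-fold higher and 6 lower (all genes 26.5% and 9.05%), with a median of -0.67 beside 0.31. The widest were Stmn2 (-2.46), the neuronal tubulin Tubb3 (-1.91) and the growth cone gene Gap43 (-1.83). In the P5 reporter comparison 2 were higher and 2 lower, with a median of 0.17. Map2 (-3.18) and Mapt (-1.81), which encode microtubule-binding proteins of dendrites and axons, were lower in pSynapsin cells, and Stmn3 higher (1.08).

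Among 8 measured synuclein relatives and partners, the chaperone Hspa8 was detected in 26 cells, the 14-3-3 gene Ywhaz in 25, Dnajc5, a chaperone of synaptic vesicles, in 23, Park7 in 22 and Ywhah in 21. The kinases Plk2 and Plk3 were found in 1 cell each and Sncaip in 0. In the culture comparison 2 of 5 were higher and 0 lower (all genes 26.5% and 9.05%), with a median of -0.23 beside 0.31. Dnajc5 (1.38) and Ywhah (1.23) were higher, and Ywhaz differed by -0.65. In the P5 reporter comparison 2 were higher and 1 lower, with a median of 0.27. Park7 (1.17) and Ywhaz (1.10) were higher in pSynapsin cells and Ywhah lower (-1.17).

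Presynaptic vesicle genes, the companions of Sncb at the terminal, ranged widely in detection. Of 13 measured, Snap25 and Vamp2 were detected in 25 cells, Syt1 in 24, Rab3a in 22, and Sv2a and Cplx3 in 18. Syp was detected in 13, Syn1 in 12, Cplx1 in 10, Cplx2 in 9, Stx1a in 6, Syn2 in 3 and Vamp1 in 1. In the culture comparison 6 of 12 were higher and 1 lower (all genes 26.5% and 9.05%), with a median of 1.12 beside 0.31. Sv2a (2.12) and Syn2 (2.06) were higher, and the syntaxin Stx1a lower (-1.75). In the P5 reporter comparison 2 were higher and 1 lower, with a median of 0.12, where Syp (2.04) and Cplx3 (1.95) were higher in pSynapsin cells and Syn2 lower (-2.06).

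Genes with the most similar pattern were ranked by Pearson's r of log2 signals over the 26 cells, among genes detected in 3 to 23 cells. For Nefl these were Col13a1 (0.85, with 4 of its 5 cells shared with Nefl), Tgfb2 (0.82, 5 of 7), Zfpm2 (0.78, 4 of 4), Rab12 (0.78, 5 of 6) and Mbnl2 (0.78, 3 of 3). For Nefm they were Rabggtb (0.83, 3 of 3), Samhd1 (0.81, 3 of 3), Traip (0.80, 3 of 4), Cs (0.78, 4 of 7) and Dand5 (0.77, 3 of 4). For Sncb the likeness was weaker: Tmed9 (0.65, 15 of 15), Timm29 (0.63, 17 of 17), Prepl (0.62, 20 of 21), Nacad (0.60, 14 of 16) and Bmpr2 (0.60, 15 of 15). These are the highest of 7193 genes over 26 cells and are given as a description. None of these 15 genes stood beside more than 1 member.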

How the data were processed

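Signals of 45101 probe sets in 26 single cells were used. Per the submitters' processing notes the authors made the deposited signal intensity values with MAS5, with no version stated in the sources used here. After trimming 2% of values from either end, array means were 500.003 to 500.01, so no further scaling was applied. The number of arrays limits the precision. Of the probe sets, 34945 belonged to 1 gene and 932 to several, which were not used, as the array annotation gives them. The table held 0 value columns without a sample.

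Calculations used scipy 1.17.1, pandas 2.3.3 and numpy 2.4.6 under Python 3.11.15, with figures from matplotlib 3.10.9. The difference and correlation ranking steps were tested on simulated data, and the detection step was not. Cells were grouped by the labels' age, reporter and culture. The members and lists were chosen with earlier results of these data known. All members were named. So were the 5 most similar genes of members detected in 3 to 23 cells, the 3 list genes with the widest differences in the culture and P5 reporter comparisons, and defining markers of other cell types. Alternatives were floors of 50 and 500, detection at 500 and 2000, quantile and 75th percentile scaling, other probe set rules, group medians and each cell left out. The other Nefl probe set was added after seeing the data. List genes without a probe set of their own were not analysed here.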

Additional observations from a re-analysis of the deposited data

Results flagged for a closer look

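Within groups of 4 or more cells, 12 sets of a member in a group were checked for a cell far from the rest, and 3 met the criterion. Its nominal chance rate of 1 of 20 assumes normally distributed values and does not hold for floored ones. In all 3 sets the other cells lay at the floor, so any value above the floor met the criterion. Nefl in E2 of the P5 pSynapsin cells was 1595, with the other 3 cells at the floor. Sncg in A8 of the cells with no culture stated was 18196, with the other 9 at the floor. Prph in D3 of the cultured P5 pNdrg4 cells was 210, only just above the floor of 200 and far below the detection signal of 1000.

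The age difference of Sncb (P8 minus P5, log2) was -1.45 in pNdrg4 and 1.94 in pSynapsin cells, and every cell of each P8 group lay on its own side of the P5 cells of the same reporter. The difference between the reporters was not tested, and age cannot be told apart from time in culture.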

How the results depend on the processing

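No paired analysis was possible because no result comes from a test, and the cell codes that recur between groups (A1 or B4, for example) are tied to no animal or culture by the labels. The number of members at least 2-fold apart in the culture comparison was 3, and 1 with group medians (2 to 3 with 1 cell left out). In the P5 reporter comparison it was 2, with 4 by the highest probe set in each cell, 1 by group medians and 2 to 4 with 1 cell left out (4 without E2 or D6). In the P8 reporter comparison it was 3, 5 with a floor of 50 and 2 to 3 with 1 cell left out. For age it was 3 in pNdrg4 cells (2 to 3) and 1 in pSynapsin cells. There it was 2 with a floor of 50, the median over probe sets, 75th percentile scaling or group medians, and 1 to 2 with 1 cell left out (2 without B3 or E2).

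The Nefl difference changed direction with the other probe set, to 0.55 for the P8 reporter, -1.03 for age in pNdrg4 cells and -0.18 for age in pSynapsin cells. With 1 cell left out these ran from -2.75 to 0.58, from -0.45 to 2.88 and from -0.62 to 2.47. The cause was not tested. By the median over probe sets Ina differed by 1.92 and -2.15 for the reporter at P5 and P8, and by 1.88 and -2.19 for age in pNdrg4 and pSynapsin cells. Nefl was detected in 3 to 6 cells over all settings, Nefm in 4, Ina in 19 to 26, Sncb in 17 to 24, Sncg in 1 to 2 and Nefh in 0. Prph was detected in 3 cells at a signal of 500 and 5 after quantile normalization. Ina and Sncb were found together in 14 to 23 cells. The median culture difference of all genes was 0.31 as deposited, 0.08 after quantile and 0.28 after 75th percentile scaling, and that of the P5 reporter 0.00, 0.00 and 0.14.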
